A study of Drosophila melanogaster with 3 samples.

Results

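The genes described here encode 9 insulator and core promoter factors of Drosophila melanogaster: M1BP, Dref, Trl, BEAF-32, CTCF, su(Hw), Cp190, mod(mdg4) and Chro. They were chosen by name, with earlier results of these data known. Each was searched for peaks of Pointed-eGFP binding whose summit lay in the gene's span or within 2 kb of it in the dm6 genome build. Of the 9 genes, 8 had at least 1 such peak, and su(Hw) had none. Together the 8 bound genes held 15 of the 3646 peaks in the reproducible set, called optimal peaks below. Over all 13945 protein-coding genes, 29.4% met the same rule, and among genes no shorter than M1BP (1909 bp) and no longer than mod(mdg4) (26556 bp) 35.4% did.

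The study measured where the ETS transcription factor Pointed sits on chromatin, by chromatin immunoprecipitation with an antibody against GFP followed by sequencing. The 3 biological replicates were whole embryos of mixed sex, aged 0 to 24 h, of the single transgenic line pnt-MiMIC-GFP, in which an eGFP exon placed in an intron of pnt yields a tagged protein from the gene's own locus. Chromatin was sonicated to 200 to 800 bp. There was 1 group and no second genotype, stage or treatment, so the values below describe binding in pooled embryonic tissues and permit no comparison between conditions; the control libraries named in the file notes were not analysed here. The antibody entry of the labels reads pnt, while the description names an anti-GFP antibody. No read counts were analysed here, so depth is unknown, and a gene without a listed peak is not shown to be unbound. The deposited relaxed lists held 30000 peaks for each replicate and 23148 for the pooled reads, and the replicates differ in the scale of their signal, so ranks within a list are used wherever replicates are set side by side.

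Insulator proteins bind boundary elements and keep the regulatory elements of neighbouring genes apart. In flies the DNA-binding members BEAF-32, CTCF and Su(Hw) recruit the cofactors CP190 and Mod(mdg4), and Chromator joins them at the borders of chromosomal domains. M1BP and DREF bind core promoter sequences, many of them at genes that every cell uses. GAGA factor, the product of Trl, binds GAGA repeats. Pointed is the nuclear effector of receptor tyrosine kinase signalling through the MAP kinase cascade, and as an ETS protein binds sites built around a GGA core.

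Sequences from 6 peaks are given first. Those of Chro, Trl and mod(mdg4) are the peaks of highest rank, and those of Cp190, Dref and CTCF are shown for the patterns found in their windows. They are from the Release 6 reference genome (dm6), are written 5′ to 3′ on the strand of the gene (minus in all of these cases), and are limited to bases outside annotated untranslated regions, apart from 2 short sites. Capitals mark a match to one of the patterns searched on both strands: TATCGATA, the DNA replication-related element (DRE) of DREF; CGATA, the BEAF-32 core, which the DRE also contains; AGNNGGCGC, a CTCF core; GAGAGAG, bound by GAGA factor; TGCATACTT, a Su(Hw) core; CCGGAA and CAGGAA, ETS cores; and motif 1, the element bound by M1BP. The Chro stretch is the 46 bases just upstream of its first start site (chr3L:22878985-22879030), and the Chro site is 27 bases of its 5′ UTR beside the summit (chr3L:22878881-22878907). The stretches at Cp190 (chr3R:15275264-15275368), Dref (chr2L:9967230-9967312) and mod(mdg4) (chr3R:21365489-21365608) lie between divergent starts, the Cp190 site spans its start (chr3R:15275228-15275254), the CTCF stretch is intronic (chr3L:7356460-7356580), and the Trl stretch is intronic (chr3L:14759334-14759628).
Chro upstream stretch: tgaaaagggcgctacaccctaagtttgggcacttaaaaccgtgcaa
Chro site: tagtttaaagcTATCGacaggcaatac
Cp190 stretch: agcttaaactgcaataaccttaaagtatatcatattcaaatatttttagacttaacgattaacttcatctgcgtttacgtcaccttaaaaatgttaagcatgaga
Cp190 site: tcgcatggcTATCGATAgctgccgagc
Dref stretch: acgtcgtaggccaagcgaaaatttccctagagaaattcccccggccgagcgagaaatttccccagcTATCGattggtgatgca
CTCF stretch: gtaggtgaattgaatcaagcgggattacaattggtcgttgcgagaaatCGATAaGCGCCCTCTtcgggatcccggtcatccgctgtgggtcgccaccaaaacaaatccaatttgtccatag
mod(mdg4) stretch: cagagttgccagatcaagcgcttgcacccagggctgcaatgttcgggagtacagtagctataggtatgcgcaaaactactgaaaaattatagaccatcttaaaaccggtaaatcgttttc
Trl stretch: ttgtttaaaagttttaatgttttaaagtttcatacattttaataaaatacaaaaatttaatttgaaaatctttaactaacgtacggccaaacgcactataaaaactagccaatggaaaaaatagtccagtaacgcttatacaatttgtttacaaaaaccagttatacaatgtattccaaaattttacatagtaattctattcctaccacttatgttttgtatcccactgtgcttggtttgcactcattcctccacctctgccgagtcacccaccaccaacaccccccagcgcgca

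Binding at the bound genes was mostly at start sites. An optimal summit lay within 500 bp of an annotated start of the gene itself for 7 of the 9 genes, against 15.8% of all protein-coding genes. The exceptions were su(Hw) and mod(mdg4). Of the 15 peaks, 12 (80.0%) were within 500 bp of a start of any gene, against 48.8% of all optimal peaks. Their summits fell upstream of the gene in 6 cases, in introns in 6 and in 5′ UTRs in 3, with 0 in coding sequence. At 8 of the 15 peaks annotated starts lay on both strands within 500 bp, as they did at 18.7% of all optimal peaks. Another gene's start was within 500 bp of 10 of the 15 summits, so those peaks cannot be assigned to the named gene by distance alone. No share over all optimal peaks is given for this count. A start of the named gene was the nearest, or tied for nearest, at 10 of the 15 summits. That held for at least 1 peak of 6 of the 9 genes. Matching shares over all optimal peaks and all protein-coding genes are not given for the nearest-start counts, so whether they are particular to these genes was not tested. The genes are few and were picked for their function with earlier results of these data known. These shares therefore describe them and were not tested.

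**Figure D1:**
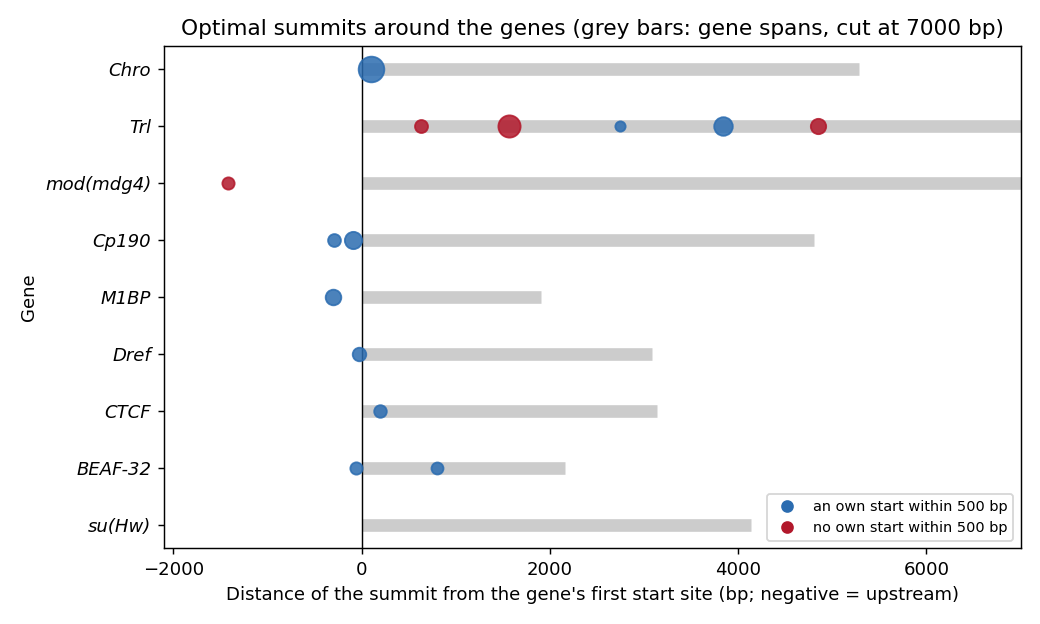
Optimal summits (points, larger for higher signal) by distance in bp from each gene's first annotated start site, one gene per line, with the gene span as a grey bar; blue points have a start of the gene itself within 500 bp and red points do not. The points of M1BP, Dref, CTCF, Cp190 and Chro lie within 303 bp of 0. Those of BEAF-32 lie 62 bp upstream and 805 bp downstream, and those of Trl spread over its first 4853 bp. The stronger mod(mdg4) summit, 11919 bp downstream of the start, is beyond the right edge.

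Signal at these genes ran from the top of the list to its weak end. The median signal of the 15 peaks was 156, against 154 over all 3646 optimal peaks, and 8 of the 15 were above that overall median. The strongest, at Chro, had a signal of 1951 and ranked 6, and the weakest, the fifth peak of Trl, had 102 and ranked 3183. Across genes the order of the strongest peak ran from Chro through Trl, mod(mdg4), Cp190, M1BP, Dref and CTCF to BEAF-32. The replicate ranks of Chro (5 to 13) did not overlap those of Trl (65 to 70), and those of Trl did not overlap those of mod(mdg4) (107 to 1516). From mod(mdg4) downward the replicate ranks of each gene overlapped those of the next, so the replicates did not separate neighbours in this part of the order. Genes further apart in it could still differ: the ranks of Cp190 (422 to 1253) did not overlap those of CTCF (1391 to 4215) or BEAF-32 (1441 to 8861).

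**Figure D2:**
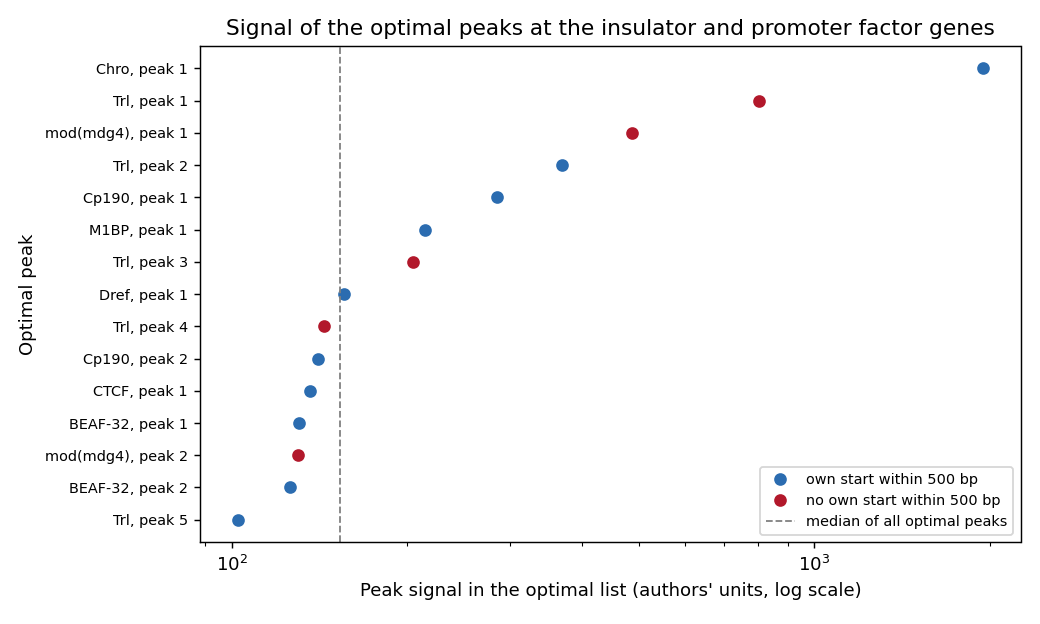
Signal of each of the 15 optimal peaks (horizontal log axis, authors' units), ordered by rank, with the dashed line at the median of all optimal peaks; blue points have a start of the gene itself within 500 bp and red points do not. Chro stands at 1951, well to the right of the next peak at 805, and 8 points are to the right of the dashed line.

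Replicates were compared through the strongest 3646 peaks of each replicate list, the length of the optimal list. A summit near the gene was among them in all 3 replicates for 5 of the 9 genes (M1BP, Trl, Cp190, mod(mdg4) and Chro), against 20.0% of all protein-coding genes. Of the 15 optimal peaks, 9 (60.0%) overlapped by at least 1 bp such a peak in all 3 replicates, against 57.0% of all optimal peaks. A further 5 did so in 2 replicates and 1 in none. When the overlapping replicate peak of nearest summit was taken in place of the strongest, 7 of the 15 (46.7%) were among the strongest of all 3 replicates, an alternative chosen after seeing the data. No share over all optimal peaks is given for this matching, so 46.7% cannot be set against 57.0%. Among the 12 peaks matched somewhere in all 3 full lists, 10 had their lowest standing in replicate 3 and 2 in replicate 1. Over the 3408 optimal peaks matched in this way, 55.6% stood lowest in replicate 3.

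**Figure D3:**
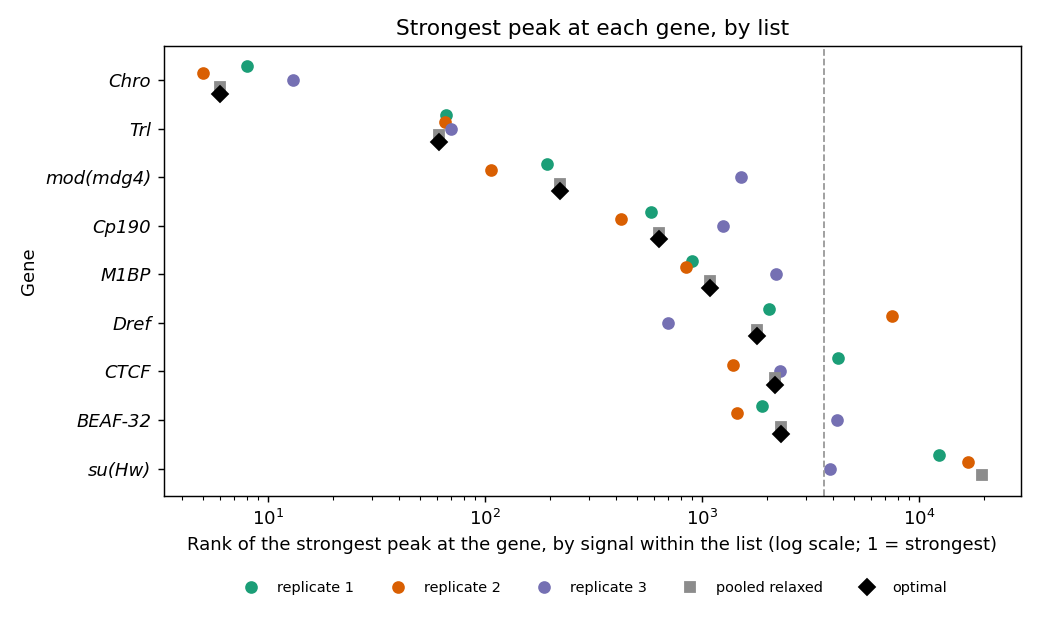
Rank of the strongest peak at each gene in each replicate list (circles), the pooled relaxed list (squares) and the optimal list (diamonds), on a log axis where 1 is the strongest peak of a list; the dashed line marks rank 3646. The replicate circles lie close together for Chro and Trl, spread over more than an order of magnitude for mod(mdg4) and Dref, and lie beyond the dashed line for su(Hw).

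Among the promoter factors, M1BP encodes the zinc finger protein that binds motif 1 and is linked to paused RNA polymerase II. M1BP (FBgn0037621, chr3R:8729790-8731698, minus strand) had 1 optimal peak at chr3R:8731809-8732192, with a signal of 214 and rank 1084. The replicate signals were 85.4, 83.8 and 49.96 in replicates 1, 2 and 3, for ranks of 901, 843 and 2197. Its summit was 303 bp upstream of the M1BP start but only 90 bp from the start of CG8202, which runs the other way. In replicate 3 the region was split into 2 listed peaks: the stronger, at rank 2197, had its summit 57 bp from the M1BP start, and the weaker, at rank 3899, stood 303 bp away as in the optimal list. Replicates 1 and 2 placed their summits 316 and 319 bp upstream of M1BP.

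Dref encodes the DRE-binding factor of genes for DNA replication and growth. Dref (FBgn0015664, chr2L:9964147-9967229, minus strand) had 1 optimal peak, at chr2L:9967066-9967449, of signal 156 and rank 1791. Its summit lay 29 bp upstream of the Dref start and 55 bp from the nearer start of RpL13, which encodes a protein of the large ribosomal subunit and is transcribed in the other direction. The printed Dref stretch is the sequence between those starts. In replicate 1 the overlapping peak had a signal of 50.8 and rank 2029, with its summit 143 bp away in the 5′ UTR. In replicate 3 it had a signal of 91.0 and rank 693, with its summit 2 bp away. Replicate 2 listed no peak there: its sole peak near Dref was in coding sequence 765 bp from the start, of signal 21.4 and rank 7482. The replicates thus did not show the peak evenly, and Dref was the bound gene with no overlapping peak at its strongest site in 1 replicate.

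Trl encodes GAGA factor, which opens chromatin at promoters and also acts at some boundaries. Trl (FBgn0013263, chr3L:14747929-14761049, minus strand) had 5 optimal peaks, the most of the 9 genes, and 4 annotated start sites. All 5 summits lay between 632 and 4853 bp downstream of its first start, 4 in introns and 1 in the 5′ UTR. The strongest, at chr3L:14759334-14759672, was intronic, with a signal of 805 and rank 61. Its replicate signals were 300, 280 and 235, for ranks of 66, 65 and 70 in replicates 1, 2 and 3. These ranks were the tightest of any gene described here, and all 3 replicate summits fell within 5 bp of the optimal one. The nearest start of Trl, which CG42507 shares, was 1517 bp away, so this strongest Trl peak was not at an annotated promoter.

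The second Trl peak, at chr3L:14757133-14757241, lay in the 5′ UTR 123 bp downstream of another Trl start. It had a signal of 369 and rank 384, and replicate ranks of 488, 404 and 419. Peaks 3 and 4 of Trl, both intronic, had signals of 205 and 144. Peak 4 ranked 2138, 2161 and 2730 in the replicates, while peak 3 ranked 1423 and 1884 in replicates 1 and 3 and had no counterpart in replicate 2. The fifth, 341 bp upstream of a start that Trl and CG42507 share, was the weakest of the 15 peaks. It ranked 4986 in replicate 1 and 3842 in replicate 3, was not listed in replicate 2, and so was the peak found in none of the strongest replicate lists. Thus 3 of the 5 Trl peaks recurred in every replicate.

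**Figure D4:**
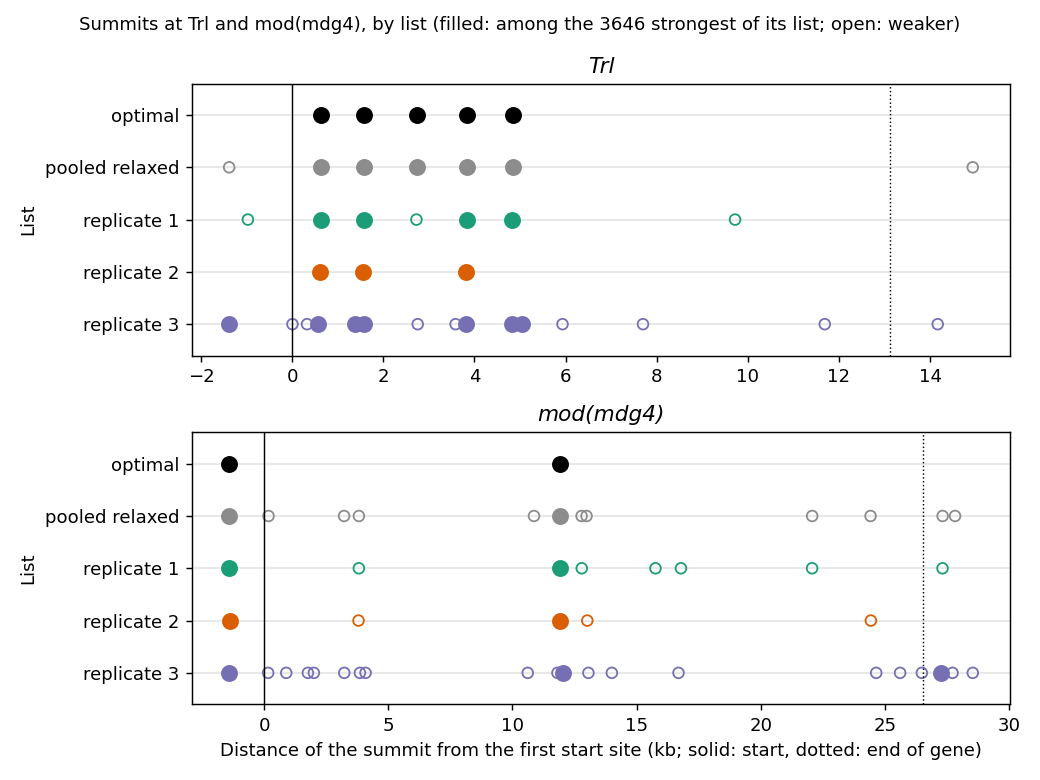
Summits at Trl (upper panel) and mod(mdg4) (lower panel) in the 5 lists, by distance in kb from the first start site; filled points are among the 3646 strongest of their list and open points are weaker. At Trl, 3 filled columns in the first 4 kb recur in every list, mod(mdg4) shows 1 filled column in the gene and 1 upstream, and replicate 3 has the most open points at both genes.

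Replicate 3 listed more peaks at several of these genes. At Trl there were 7, 3 and 15 listed peaks in replicates 1, 2 and 3, of which 4, 3 and 7 were among the strongest 3646. At mod(mdg4) the counts were 8, 5 and 20, of which 2, 2 and 3 were among the strongest. At Chro they were 2, 1 and 9, and 1 peak in each replicate was among the strongest. Replicate 3 also listed the most peaks at Dref, BEAF-32, su(Hw) and Cp190. It did not at M1BP (2, 1 and 2) or CTCF (2 in each). The 3 lists were equally long, so replicate 3 devoted more of its 30000 entries to Trl, mod(mdg4) and Chro, most of them weak. No counts over all genes are given, so whether this is particular to these genes was not tested.

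Of the DNA-binding insulator proteins, BEAF-32 is the boundary element-associated factor that binds CGATA. BEAF-32 (FBgn0015602, chr2R:14770469-14772630, plus strand) had 2 optimal peaks. The stronger, at chr2R:14770215-14770598, had a signal of 130 and rank 2306, with its summit 62 bp upstream of the first start. Replicate signals there were 51.9, 59.5 and 22.7, for ranks of 1972, 1441 and 8861 in replicates 1, 2 and 3. The second, at chr2R:14771082-14771465, had a signal of 126 and rank 2429, 27 bp from a later BEAF-32 start and 21 bp from a start of the antisense RNA CR42254. It ranked 1897, 2918 and 4175 in the replicates. Neither BEAF-32 peak was among the strongest 3646 of replicate 3. Both overlapped such a peak in replicates 1 and 2, but for the second peak the one in replicate 2 had its summit 201 bp away, and the replicate 2 peak of nearest summit ranked 3893, outside them.

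CTCF encodes the fly orthologue of the vertebrate zinc finger insulator protein. CTCF (FBgn0035769, chr3L:7353578-7356713, minus strand) had 1 optimal peak at chr3L:7356320-7356703, of signal 136 and rank 2166. Its summit lay 201 bp downstream of the start, in an intron. The replicate signals were 29.3, 60.7 and 49.0, for ranks of 4215, 1391 and 2283 in replicates 1, 2 and 3. Here replicate 1 stood lowest, outside its strongest 3646, unlike at most of the other peaks.

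su(Hw) encodes the zinc finger protein that binds the insulator of the gypsy transposon. su(Hw) (FBgn0003567, chr3R:14304455-14308589, minus strand) had no optimal peak. The pooled relaxed list held 2 peaks near it, at ranks 19401 and 21015 of 23148. The best-ranked peaks of replicates 1 and 2 stood at 12315 and 16855. Replicate 3 listed a peak in the 5′ UTR, 295 bp from the start, of signal 36.3 and rank 3895, just outside its strongest 3646. The replicate positions also differed: the best peak was 255 bp upstream of the start in replicate 1 and beyond the 3′ end in replicate 2. No position near su(Hw) therefore recurred as the best peak of the replicates.

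Among the cofactors, Cp190 encodes the centrosomal and insulator protein that bridges several DNA-binding members. Cp190 (FBgn0000283, chr3R:15270432-15275241, minus strand) had 2 optimal peaks upstream of its start, where CG4338 begins and is transcribed the other way. The stronger, at chr3R:15275264-15275368, had a signal of 285 and rank 633, with its summit 88 bp upstream of the Cp190 start and before that of CG4338. Its replicate signals were 106, 125 and 66.8, for ranks of 584, 422 and 1253. The second, at chr3R:15275395-15275541, had a signal of 141 and rank 2046, 289 bp from the Cp190 start and 8 bp inside CG4338, so that it spans the CG4338 start. All 3 replicates also listed 2 peaks there, and the one nearest the second summit ranked 1226, 1838 and 3727. Each replicate thus placed one summit 68 to 88 bp upstream of Cp190 and the other 9 to 13 bp from the start of CG4338.

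mod(mdg4) encodes a family of BTB-domain proteins whose variable ends are added by trans-splicing, in which exons from separate precursor RNAs are joined. mod(mdg4) (FBgn0002781, chr3R:21350846-21377401, minus strand) had 22 annotated transcripts from 1 start, and 23 other annotated genes overlapped its span. Its stronger peak, at chr3R:21365400-21365618, had a signal of 487 and rank 222. The replicate signals were 189, 233 and 60.5, for ranks of 192, 107 and 1516, so replicate 3 stood apart from the other two. The summit lay in an intron 11919 bp downstream of the mod(mdg4) start. It was 6 bp from a start of pre-mod(mdg4)-E, one of the separately annotated precursor segments. Starts of the precursor segments -E, -C and -AB on the minus strand lay 192 bp away on one side, and a start shared by 7 segments on the plus strand lay 127 bp away on the other side. The peak at mod(mdg4) thus lay among starts of precursor segments, far from the main start of the gene.

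The second mod(mdg4) peak, at chr3R:21378627-21379010, had a signal of 130 and rank 2326. It lay 1418 bp upstream of the mod(mdg4) start but 158 bp from that of tin, the homeobox gene of heart and visceral muscle development. It ranked 2551, 2808 and 2938 in the replicates. By distance this peak belonged to tin, and mod(mdg4) had no optimal peak within 500 bp of its own start.

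Chro encodes Chromator, a chromodomain protein of interbands, domain borders and the mitotic spindle. Chro (FBgn0044324, chr3L:22873702-22878984, minus strand) had 1 optimal peak, at chr3L:22878707-22879074, of signal 1951 and rank 6 of 3646. The replicate signals were 701, 774 and 491, for ranks of 8, 5 and 13 in replicates 1, 2 and 3. Its replicate summits were 1, 0 and 6 bp from the optimal summit. The summit lay in the 5′ UTR, 103 bp downstream of the first start and 113 bp upstream of another, so between those Chro starts. The nearest start of Ssl1, on the plus strand, was 208 bp away on the far side of the first Chro start. Ssl1 encodes a subunit of the general transcription factor TFIIH. The other Chro peak of the pooled list was in coding sequence, with a signal of 47.5 and rank 10246, so binding at this gene was concentrated at its start sites.

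Among genes that do not share the Chro peak, the replicate ranks most like those of Chro, by the largest difference in log2 rank over the 3 replicates, belonged to CenG1A, Polr2C and mRpS23. All 3 hold one and the same peak, at chr2L:13835278-13835634, 111 bp from a CenG1A start. That peak had a signal of 1689, rank 11, replicate ranks of 13, 7 and 14, and a largest difference of 0.70. The likeness therefore describes a single other peak of similar strength.

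The count of matches to the core promoter patterns beside these summits changed with the width searched. Of the 15 windows of 201 bp centred on a summit, 1 held a match to the DRE, motif 1 or GAGA patterns, against 7.32% of all optimal windows. Within 50 bp of the summit there were 0 of 15, against 3.13%, and within 250 bp 5 of 15, against 21.6%. The match in the 201 bp windows was the DRE of the Cp190 site, centred 87 bp from the stronger Cp190 summit and outside the peak's 105 bp interval; the DRE was present in 3.21% of all optimal windows. No window held motif 1 (1.01% of all optimal windows), GAGAGAG (3.32%) or TGCATACTT (0.713%). The windows of Trl peaks held no GAGA match, and those of Dref and M1BP held no DRE and no motif 1. Absence of these letters from a window carries no information on the factor.

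The BEAF-32 core was found in 6 of the 15 windows, against 29.1% of all optimal windows. The matches were centred 13 bp from the Chro summit, 14 bp from the Dref summit and 18 bp from the CTCF summit, and further out at the fifth Trl peak, the second BEAF-32 peak and the stronger Cp190 peak. The CTCF window also held the CTCF core, 10 bp from its summit, which reads as its reverse complement in the stretch printed above; 4.20% of all optimal windows held that core. In the 201 bp windows, the CTCF peak and the second BEAF-32 peak held the pattern of their own gene's product. Further out at Trl, GAGAGAG matches were centred 125 bp from the summit of peak 4 and 169 to 181 bp from that of peak 2. Of the ETS cores, CCGGAA was in the Chro window, 65 bp from the summit, and in that of the fifth Trl peak, 89 bp from the summit (3.43% of all optimal windows). The other ETS core was in none of the 15 windows and in 6.14% of all optimal windows. The windows held 29.9% to 48.3% GC bases, around the median of 36.3% over all optimal windows.

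Other genes of insulator, cohesin and promoter biology were examined in the same way. Of 30 such genes, 12 had an optimal summit in their span or within 2 kb, against 29.4% of all protein-coding genes. These genes spanned 503 bp (e(y)2) to 61398 bp (lola), and a longer span gives more room for a summit. The counts below were not adjusted for length. Among promoter factors 5 of 9 were bound. Adf1, a DNA-binding regulator with a MADF domain, had the strongest peak of them, intronic, with a signal of 1397, rank 22 and replicate ranks of 20, 10 and 43. lola, a BTB zinc finger gene, had a signal of 327 and rank 486, and fs(1)h, the BET bromodomain gene, had 218 and rank 1058. psq, whose BTB protein binds GAGA repeats, and Trf2, a relative of the TATA-binding protein, were also bound.

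Both genes for partners of Chromator were bound. JIL-1, the histone H3 kinase of interbands, had an intronic peak of signal 565 and rank 155, 7083 bp from its nearest start, with replicate ranks of 200, 273 and 74. pzg, which encodes the interband zinc finger protein Z4, had a signal of 192 and rank 1284, 151 bp from its own start and 14 bp from that of CG12974. Of the 7 cohesin and condensin genes 3 were bound: Cap-H2 with a signal of 194 and rank 1259, SA1 with 149 and rank 1909, and Cap-D3 with 109 and rank 2929. The Cap-H2 peak was 28 bp from the start of MED7 and 250 bp from that of Cap-H2. The Cap-D3 peak was 28 bp from the start of Elp4 and 1794 bp from its own, and it ranked 1687, 15815 and 7743 in the replicates.

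Of the 12 further insulator genes 2 were bound. pita, a zinc finger insulator gene, had its strongest peak at a signal of 222 and rank 1017. That peak was 64 bp from the start of wmd and 3499 bp from the nearest pita start, while another pita summit lay within 500 bp of one. e(y)2, whose protein works with Su(Hw) and in the SAGA complex, had a signal of 106 and rank 3032, 43 bp from the start of CG11695 and 220 bp from its own. ZIPIC, dwg, Ibf1, Ibf2, Elba1, Elba2, Elba3, insv, Rm62 and l(3)mbt held no optimal peak. Among the 30 genes, 9 had an optimal summit within 500 bp of their own start, against 15.8% of all protein-coding genes. A summit in the strongest lists of all 3 replicates was found for 8 of the 30, against 20.0% of all protein-coding genes.

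**Figure D5:**
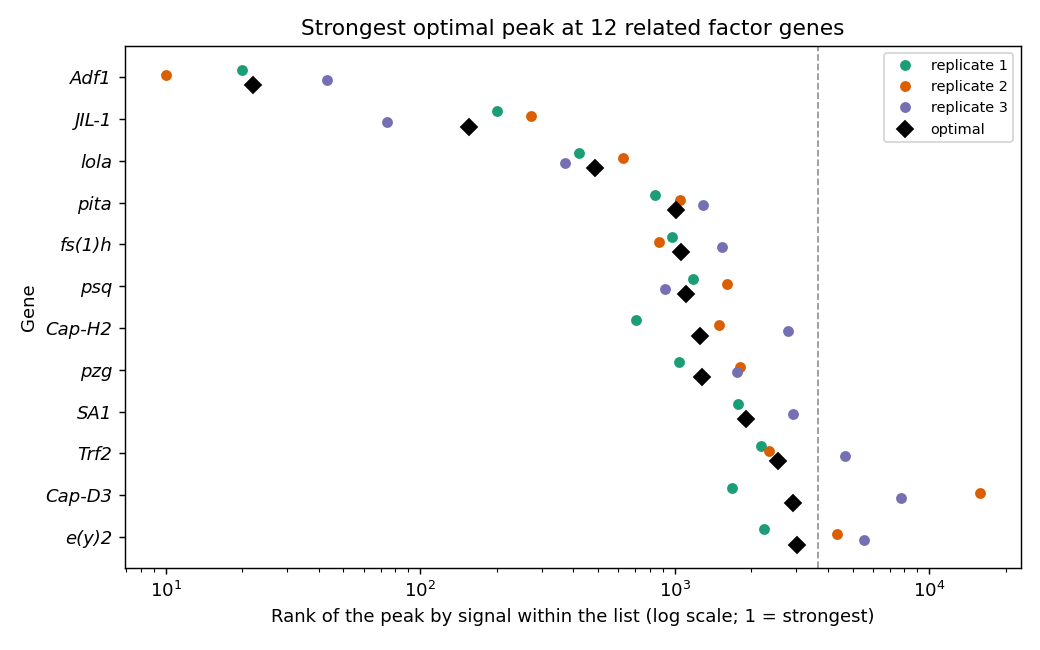
Ranks of the strongest optimal peak of each of the 12 bound related genes in the 3 replicates (circles) and the optimal list (diamonds), on a log axis where 1 is the strongest; the dashed line marks rank 3646. Adf1 stands alone at the strong end at rank 22, and the circles of Cap-D3 are the most widely spread.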

How the data were processed

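Chromatin immunoprecipitation was analysed from 3 replicates of 1 group, and no group comparison was made. Per the labels, the assembly is dm6. The authors deposited peak lists in narrowPeak layout: an optimal list, a pooled relaxed list and a relaxed list for each replicate, said in the file notes deposited with the samples to be input to the irreproducible discovery rate procedure. In each, the deposited signal in column 7 is the peak's own value on a scale that is not stated, column 9 is by that layout a −log10 q-value, and column 10 is the deposited summit offset. The aligner, the peak caller and the reproducibility threshold were not given in the sources used here. Column 9 was tied at its highest value for 88.1% of optimal peaks, so peaks were ranked by signal within the whole list.

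Summits (start plus offset) were placed on Ensembl release 115 annotation of the same build with Python 3.11.15, pandas 2.3.3 and numpy 2.4.6; all 9 symbols and the 30 further symbols matched. Peaks were matched to the strongest replicate peak sharing at least 1 bp. The background is every protein-coding gene, or every optimal peak. The steps were tested on simulated data. The summit of 9 of the 15 peaks is the middle of a peak of the commonest length, 384 bp, which limits how finely distances can be read; 80.6% of optimal peaks had that length.

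The genes, related genes and patterns were chosen with earlier results of these data known. Named were the 9 genes, the bound related genes (the 3 of highest signal in each of 4 groups with values), the 3 genes most like Chro in replicate ranks, and the gene of the nearest start. No p-values were computed. The dm3 lists and signal tracks were not analysed here.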

Additional observations from a re-analysis of the deposited data

How the results depend on the processing

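No paired analysis was possible because there was 1 group. The optimal list could not be rebuilt without a replicate. With a flank of 0 bp in place of 2 kb, 5 genes held 9 optimal peaks and 7 of the 30 related genes were bound, against 1398 of all 13945 protein-coding genes; M1BP, Dref and Cp190 then had none. The stronger 50% of the optimal list gave 8 peaks, and the whole pooled relaxed list 35 peaks at all 9 genes, where 76.9% of all protein-coding genes had one. All 9 genes had a summit in every whole relaxed replicate list, su(Hw) included, as did 59.6% of all protein-coding genes. When each peak and its match had to share at least 50% of their lengths, 26.7% of the 15 peaks matched the strongest lists of all 3 replicates. No share over all optimal peaks is given for this setting. A DRE, motif 1 or GAGA match was in 0 windows at 50 bp either side of the summit and in 5 at 250 bp. The 4 further peaks were peaks 2 and 4 of Trl (GAGA), the stronger of BEAF-32 (DRE) and that of CTCF (DRE). Without any 1 replicate, 6 genes were in the strongest lists of both others, and the peak share ranged from 66.7% to 73.3%. The matching shares over all protein-coding genes and all optimal peaks are not given for pairs of replicates, so these values describe the 9 genes alone. Ranking by −log10 q tied the strongest peak of all 8 bound genes at rank 1606. The remaining alternatives kept each count within 1.5 times its value, the cause of the moves was not tested beyond the settings' own construction, and unknown depth limits any statement on weak or missing peaks.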
